A study of Aedes albopictus with 6 samples.

Results

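Isolated nuclear tags of 24 or 25 nt are the small RNAs of the Asian tiger mosquito, Aedes albopictus, that stood alone in the deposited list. A tag is 1 small RNA with its position and counts. Members were chosen by position and length: not on the mitochondrial sequence, 24 or 25 nt long, and with no other listed tag overlapping them or within 10000 bases of either end. The rule took 1204 of 22773 listed tags, 5.40% of the 22304 listed nuclear ones, and 594 of them were 24 nt and 610 were 25 nt long. All listed tags differed at least 2-fold between the sexes, so isolated means isolated among listed tags, and small RNAs outside the list may lie nearer.

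PIWI-interacting RNAs (piRNAs) guide PIWI-family proteins of the Argonaute group to matching transcripts, and in animal germ lines they are best known for silencing transposons. Many are cut from long precursor transcripts, so that piRNAs of such a locus lie close together on the genome, while others lie alone. In Aedes mosquitoes piRNAs also arise outside the germ line. The tags described here lie at the short end of the list, below 27 and 28 nt, the lengths with the most listed tags.

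Whole bodies of 2-day-old adult males and of 2-day-old virgin adult females were compared, each titled with 3 libraries, to describe how piRNAs differ between the sexes. The deposited table gives 1 count per tag for males and 1 for females, so there is no spread between libraries to set a difference against, and no test between the sexes was possible. The totals behind the table were 2060047 counts in males and 2677063 in females. TPM stands for the count after scaling each column to a total of 1000000, with no length term. Brackets give exact 95% intervals, which for counts and their ratios cover counting error only and for shares of tags treat tags as independent. The labels name neither a strain nor how many mosquitoes were pooled. In whole bodies a difference in the number of germ line or other cells and a difference in RNA per cell cannot be told apart. Neither tag sequences nor strands nor a genome or annotation of the table's build were used here, so no sequence is shown and no member is placed in a gene, exon, intron or transposon.

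By number the isolated tags were mostly higher in females, but they were also mostly very rare. Of the 1204, 288 were higher in males (23.9%, 21.5 to 26.4) and 916 were higher in females. Over all listed tags 31.7% were higher in males and 68.3% were higher in females. Only 131 of the isolated tags were counted in both sexes, 80 of them higher in males and 51 higher in females. A further 208 were listed in males alone and 865 in females alone. Over all listed tags 17.0% were listed in males alone and 55.7% in females alone. Because no count of 1 occurs in the table, a listed 0 can stand for 0 or for 1.

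The counts crowded at the lower edge of the list, which was a sum of 6 counts over both sexes. That lowest sum was held by 549 isolated tags (45.6%, 42.8 to 48.5), against 27.7% of all listed nuclear tags, and 802 had a sum of 6 or 7. Only 90 (7.48%, 6.05 to 9.11) reached a sum of 20, against 19.9% of all listed nuclear tags. In the 288 male-higher members the male count ran from 6 through a median of 7 to 143, with 43 at 20 or more. In the 916 female-higher members the female count ran from 6 through the same median of 7 to 396, with 32 at 20 or more. The other sex was listed at 0 for 72.2% of male-higher and 94.4% of female-higher members. In sum the members held 4019 male counts and 8677 female counts, which were 1.81% of the listed male and 3.23% of the listed female counts. The summed TPM was 1951 in males and 3241 in females, a male over female ratio of 0.602 (0.580 to 0.625).

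**Figure D1:**
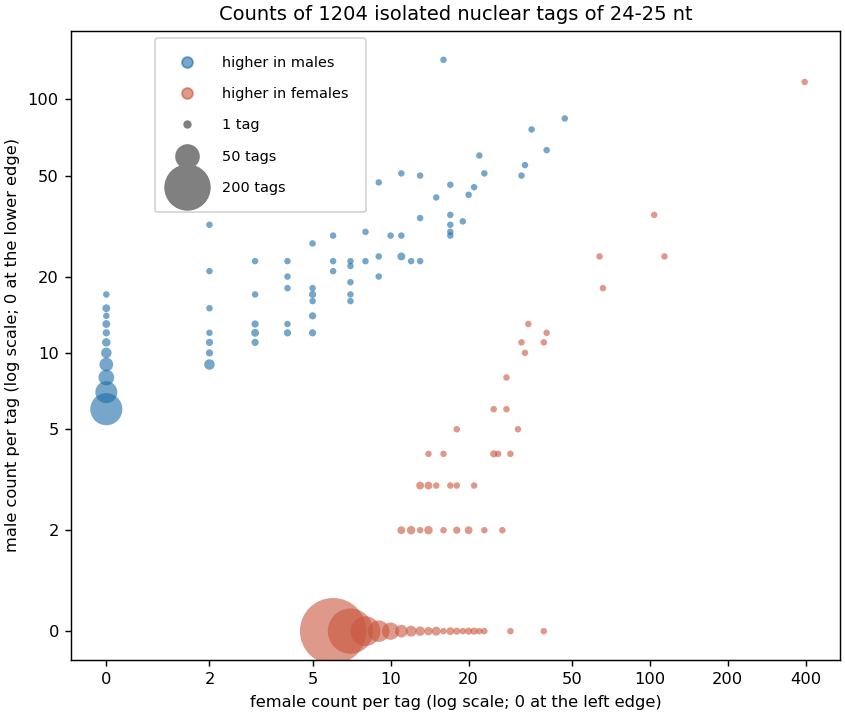
Male count (vertical axis) against female count (horizontal axis) for each of the 1204 isolated nuclear tags of 24 or 25 nt, on log scales with 0 drawn at the edges; circle area grows with the number of tags at the same pair of counts, and colour gives the sex in which the tag is higher. At a sum of 6 or 7 counts lie 148 male-higher and 654 female-higher tags, while the cloud of tags counted in both sexes is larger on the male-higher side, with 80 tags against 51.

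The most counted male-higher member was t00023580, a 25-nt tag at NW_021838654.1 1279541 to 1279565, with 143 counts in males and 16 in females. Its level was 69.4 TPM in males and 5.98 TPM in females, 11.6-fold (6.91 to 20.9) higher in males, and the nearest listed tag lay 89584 bases away. It stood apart from the next 5, whose ratios lay between 2.05 and 3.54. Of these, t00027708 at NW_021838710.1 1645359 to 1645383 (25 nt) was 2.32-fold higher in males (1.61 to 3.39), with 84 male and 47 female counts. The 24-nt tag at NW_021837267.1 27718558 to 27718581 was 2.82-fold higher (1.87 to 4.34), with 76 male and 35 female counts. The 25-nt tag at NW_021837045.1 67683436 to 67683460 was 3.54-fold higher (2.14 to 6.07), with 60 male and 22 female counts. A pair of 24-nt tags lay at the edge of the list. The one at NW_021838588.1 6285279 to 6285302 was 2.05-fold higher in males (1.36 to 3.12), with 63 male and 40 female counts. The one at NW_021838909.1 3311289 to 3311312 was 2.17-fold higher (1.38 to 3.44), with 55 male and 33 female counts. With RLE factors, another scaling, the ratios of this pair turned to 0.907 and 0.960. Those factors were computed from the listed tags alone, so no tag alike in both sexes entered them.

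The most counted member of all was higher in females. This 24-nt tag, t00008385 at NW_021838153.1 10222480 to 10222503, had 117 counts in males and 396 in females, or 56.8 TPM in males and 148 TPM in females. It was 2.60-fold (2.11 to 3.23) higher in females, and its nearest listed tag lay 470919 bases away, beyond the upper quartile of that distance over members. Next came t00026556 at NW_021837156.1 34848401 to 34848425 (25 nt), with 24 counts in males and 114 in females, 3.66-fold (2.34 to 5.94) higher in females. The 25-nt tag at NW_021839020.1 29906570 to 29906594 had 35 counts in males and 104 in females, 2.29-fold (1.55 to 3.46) higher in females. The 24-nt tag at NW_021837045.1 103038409 to 103038432 had 18 in males and 66 in females, 2.82-fold (1.66 to 5.05) higher in females. The last of the 6, at NW_021838787.1 615354 (24 nt) and NW_021837378.1 37726273 (25 nt), had female over male ratios of 2.05 (1.27 to 3.43) and 2.57 (1.32 to 5.37).

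Members listed in only one sex stayed at low counts. The best counted in males alone was the 24-nt tag at NW_021838153.1 61075890 to 61075913, with 17 counts (9.90 to 27.2) in males and 0 listed in females, a level of 8.25 TPM in males. It was followed by tags with 15 counts in males and 0 listed in females at NW_021838465.1 62096359, NW_021837045.1 13814597 and NW_021837046.1 2840302, and by one with 14 at NW_021837931.1 3771167. In females alone the best counted was the 24-nt tag at NW_021838932.1 1066940 to 1066963, with 0 listed in males and 39 counts (27.7 to 53.3) in females, or 14.6 TPM in females. A 25-nt tag at NW_021837267.1 35394163 had 0 listed in males and 29 counts in females. Its nearest listed tag, 282267 bases on, was another of the 5 leading tags of this kind, at 35676454 on the same sequence, with 0 listed in males and 21 in females. The other two, at NW_021837711.1 16980149 and NW_021837156.1 51386189, had 0 listed in males and 23 and 22 counts in females. No member of the 208 listed in males alone, and 2 of the 865 listed in females alone, reached 10 TPM. Such tags were rare at that level in the whole list too. Over all listed tags 99 of 3868 in males alone and 138 of 12682 in females alone reached it.

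Among the 131 members counted in both sexes the sizes of the differences overlapped between the directions. The median fold was 4.34 for the 80 male-higher tags, with quartiles of 3.08 and 5.85, and 4.23 for the 51 female-higher tags, with quartiles of 3.14 and 5.39. Over all listed tags the medians were 4.26 for male-higher and 3.85 for female-higher tags. At least 4-fold apart were 44 of the 80 (55.0%) and 28 of the 51 (54.9%). Over all listed tags counted in both sexes these shares were 53.4% of male-higher and 48.9% of female-higher tags. At least 8-fold apart were 5 of the 80 male-higher and 2 of the 51 female-higher members. Over all listed tags counted in both sexes it was 466 of 3358 male-higher and 170 of 2865 female-higher tags. These sizes rest in part on what the list admits. All 131 were at 3 TPM or more in the higher sex, tags less than 2-fold apart are left out, and no count of 1 occurs. The order of the medians was not stable. Scaling by listed totals gave 4.04 for male-higher and 4.55 for female-higher tags, while TMM factors gave 3.22 for male-higher and 5.71 for female-higher tags. The counting interval of the ratio lay above 1 for all 288 male-higher members, or 23.9% of members against 31.7% of all listed tags. It lay below 1 for 460 female-higher members, or 38.2% of members against 44.6% of all listed tags. For the other 456 female-higher members it held 1. In members listed in one sex alone the smallest count whose interval left out 1 was 6 in males and 7 in females, and whether the list was filtered on a count test is not known here.

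The direction of the isolated tags changed with their level. Among the 844 members below 3 TPM in the sex where they were higher, 102 (12.1%, 9.96 to 14.5) were higher in males. With the smaller male total, this class could hold male-higher tags of 6 counts only, worth 2.91 TPM in males, but female-higher tags of up to 8 counts. At 3 TPM or more, which took 7 counts in males or 9 in females, there were 360 members, and 186 of them (51.7%, 46.4 to 56.9) were higher in males, against 47.3% of all listed tags of that level. Between 3 and 4 TPM the male-higher share was 48.9% (40.4 to 57.5), between 4 and 10 TPM it was 47.2% (39.4 to 55.2), between 10 and 20 TPM it was 69.2% (52.4 to 83.0), and from 20 TPM on it was 73.7% (48.8 to 90.9) of 19 tags. All listed nuclear tags showed a like order, with 12.8%, 41.9%, 40.1%, 57.3% and 68.4% in these 5 classes from the lowest on. The male over female ratio of summed counts was 0.602 over all members, 1.15 (1.10 to 1.21) over the 360 and 1.42 (1.33 to 1.51) over the 58 members of at least 10 TPM. Over all listed tags the same 3 ratios were 1.08, 1.33 and 1.66. Both sets of ratios rested on the scaling. Those of the members were 0.446, 0.854 and 1.05 with TMM factors, and 0.267, 0.511 and 0.627 with RLE factors. Those over all listed tags were 0.797, 0.988 and 1.23 with TMM factors, and 0.476, 0.590 and 0.735 with RLE factors. The shares could hardly move under these scalings, because every listed tag is at least 2-fold apart and only the RLE shift is larger than that. With RLE factors 181 of the 360 and 36 of the 58 were higher in males, against 186 and 41 with the totals behind the table. The members of 24 and of 25 nt had overlapping intervals. At 3 TPM or more 50.5% (43.2 to 57.9) of the 24-nt and 52.9% (45.2 to 60.5) of the 25-nt members were higher in males.

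The male-higher share of the isolated short tags lay between those of isolated tags of 27 or 28 nt and of short tags in company. Isolated nuclear tags of 27 or 28 nt numbered 3038, and 14.6% (13.3 to 15.9) of them were higher in males, below the 23.9% of the isolated short tags. At 3 TPM or more the shares were 51.7% (46.4 to 56.9) for the short and 25% (22.6 to 27.5) for the longer isolated tags. Nuclear tags of 24 or 25 nt with a listed neighbour within 10000 bases numbered 2794. They were higher in males in 44.7% (42.8 to 46.5) of cases, and in 65.5% (63.1 to 67.9) at 3 TPM or more. The intervals of the isolated short tags did not meet those of either set at below 3 TPM or at 3 TPM or more. In finer classes they met those of short tags with a neighbour at 3 to 4 TPM, at 10 to 20 TPM and from 20 TPM on, and from 20 TPM on also those of the longer isolated tags. No test of these differences was run, because tags of a library are not replicates, and whether intervals meet is no such test. Of the 2794 short tags with a neighbour, 1353 overlapped another listed tag. The intervals treat such tags as independent and may be too narrow. Isolated tags of 26, of 29 or 30 and of 31 to 33 nt had male-higher shares of 39.9% (34.1 to 45.8), 29.5% (25 to 34.3) and 40.6% (23.7 to 59.4) at 3 TPM or more. With no minimum level their shares were 19.8% (17.3 to 22.6), 17.9% (15.4 to 20.6) and 21.6% (12.9 to 32.7). At 10 TPM or more they were 63.9% (46.2 to 79.2), 60.8% (46.1 to 74.2) and 55.6% (21.2 to 86.3). The isolated short tags had 70.7% (57.3 to 81.9) there, with an interval that overlapped each of these. Read the other way, short tags supplied 186 of the 741 isolated male-higher tags of at least 3 TPM, or 25.1% (22.0 to 28.4), and 174 of the 1580 isolated female-higher ones, or 11% (9.51 to 12.7).

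**Figure D2:**
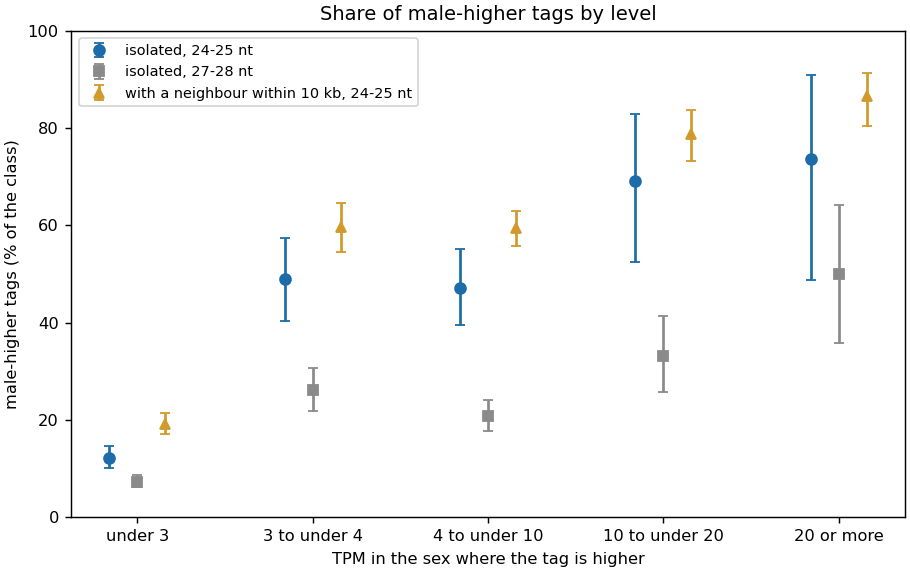
Percentage of tags higher in males (vertical axis) by the TPM of the tag in the sex where it is higher (horizontal axis), for isolated tags of 24-25 nt, isolated tags of 27-28 nt and 24-25 nt tags with a listed neighbour within 10 kb; bars are exact 95% intervals over tags. The points of isolated 24-25 nt tags lie above those of isolated 27-28 nt tags and below those of 24-25 nt tags with a neighbour in all 5 classes, at 12.1%, 7.23% and 19.1% in the lowest, but from 20 TPM on the intervals overlap.

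With no minimum level, isolated short tags were rarer and less often counted in both sexes. A sum of 6 counts was held by 45.6% of the isolated short tags, 33.4% of the isolated tags of 27 or 28 nt and 29.4% of the short tags with a neighbour. Counted in both sexes were 10.9% (9.18 to 12.8) of the isolated short tags, 14.7% of the isolated 27 or 28-nt tags and 29.1% of the short tags with a neighbour. Over all listed tags 6223 were counted in both sexes, and all 6223 were at 3 TPM or more in the higher sex. No listed tag below that level was counted in both, so these shares in part restate how many tags reach it. Their order changed with level. At 3 TPM or more they were 36.4%, 35.6% and 52.8%, and at 10 TPM or more they were 96.6%, 82.0% and 95.7%, in the same order of sets. Isolated tags made up 30.1% of the 3998 nuclear tags of 24 or 25 nt, and 28.3% of the 10747 of 27 or 28 nt. Among nuclear tags of 24 or 25 nt, isolation was found for 18.8% (16.8 to 20.8) of those higher in males, which numbered 1536, and for 37.2% (35.3 to 39.1) of those higher in females, which numbered 2462. At 3 TPM or more these were 15.6% (13.6 to 17.8) of 1194 and 24.7% (21.6 to 28.1) of 704.

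The male-higher share was highest in tags that overlapped another and lay level on both sides of the limit of 10000 bases. Of the nuclear 24 or 25-nt tags that overlapped another listed tag, 57.1% (54.4 to 59.7) were higher in males. The share was 39.1% (34.8 to 43.6) with the nearest tag up to 100 bases away and 34.7% (30.8 to 38.8) from there to 1000 bases. Between 1000 and 10000 bases, still inside the limit, it was 22.5% (18.4 to 27.1). Beyond the limit it was 23.2% (19.3 to 27.5) up to 50000 bases, 24.9% (21.1 to 29.1) from there to 200000 and 23% (18.0 to 28.7) further away. Tags 1 to 10 kb from a neighbour thus had a share within the intervals of the isolated classes. At 3 TPM or more the overlapping tags had the highest share, at 71.9% (68.9 to 74.8). At this level the share was 58.3% (51.8 to 64.5) up to 100 bases, 55.6% (49.1 to 62.0) from there to 1000 and 50.4% (41.2 to 59.6) from there to 10000. It was between 50% and 57.7% in the classes beyond the limit that had neighbours. Of all these, only the class over 200000 bases, at 57.7% (45.4 to 69.4), had an interval that met that of the overlapping tags. Overlapping tags lie at the same place, so their interval may be too narrow, and whether intervals meet is no test. The levels moved along, as 69.0% of overlapping and between 27.7% and 30.4% of those isolated tags reached 3 TPM. Their part in the share over all tags was not tested beyond this split.

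**Figure D3:**
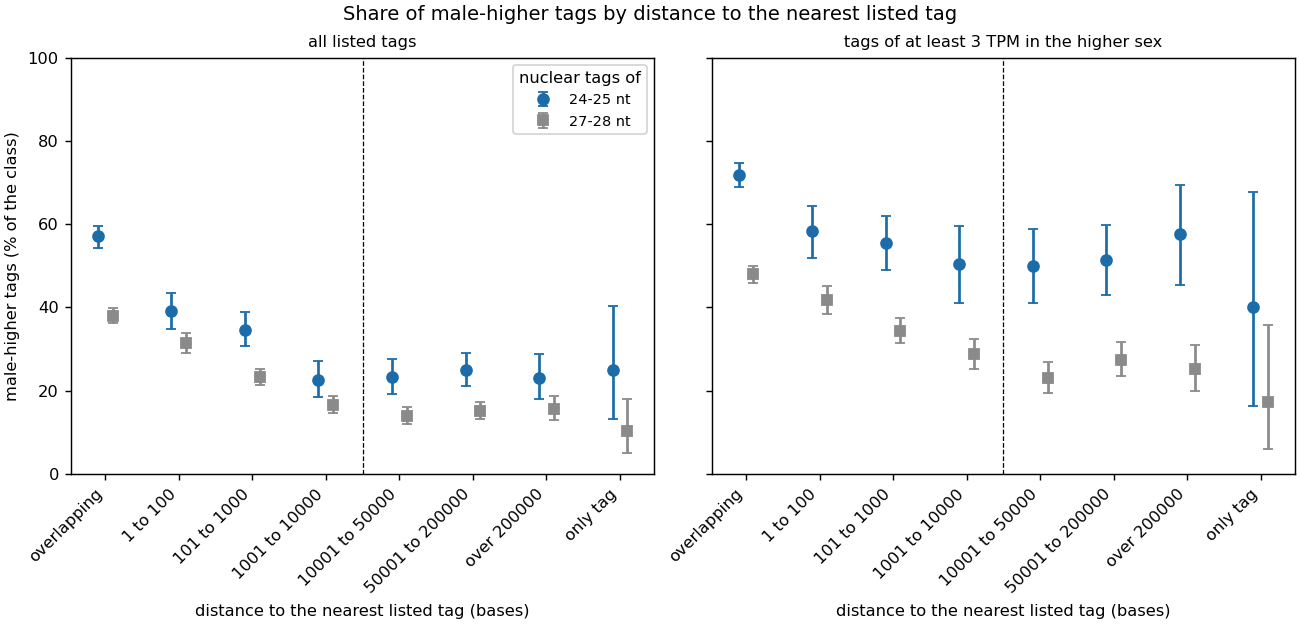
Percentage of nuclear tags higher in males (vertical axis) by distance in bases to the nearest listed tag (horizontal axis), for tags of 24-25 nt and of 27-28 nt, over all listed tags (left) and tags of at least 3 TPM in the higher sex (right); bars are exact 95% intervals over tags and the dashed line marks the limit of 10000 bases. For 24-25 nt tags the share over all listed tags is 57.1% where tags overlap and 22.5% between 1000 and 10000 bases, and stays between 23% and 25% beyond the line.

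Members with another listed tag on their sequence numbered 1160, and the distance to it had a median of 77850 bases, with quartiles of 33509 and 178536 and a largest value of 1264234. The median distance was 80477 bases for male-higher and 76577 for female-higher members. For 833 of the 1160 the nearest listed tag, of whatever length, was itself isolated. That nearest tag had similar shares of male-higher tags beside members of either direction. It was higher in males for 56 of 277 male-higher members (20.2%, 15.6 to 25.4) and for 186 of 883 female-higher members (21.1%, 18.4 to 23.9). Just outside the limit of 10000 bases, at NW_021838708.1 53118, NW_021838795.1 238831 and NW_021838153.1 128041456, the neighbour was 10024, 10150 and 10155 bases away. The first had 11 counts in males and 0 listed in females, and the others had 0 listed in males and 6 and 14 counts in females. Just inside it, 3 tags at 9979, 9917 and 9874 bases, which are not members, had 0 listed in males and 7 counts in females each.

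The isolated tags were spread over many scaffolds. They lay on 255 of the 685 nuclear sequences with a listed tag. Of the 255, 152 held 1 member, 80 held 2 to 9, and 23 held 10 or more. The most were on NW_021838153.1 with 97, NW_021837045.1 with 93 and NW_021838576.1 with 71, together 21.7% of the members and 19.4% of all listed nuclear tags. On 44 sequences a member was the sole listed tag, and 11 of those 44 were higher in males. Sole tags reached 29 counts in males and 31 in females, 9 were listed in males alone, 30 in females alone and 5 in both sexes.

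Along the long scaffolds the isolated tags lay more evenly than listed tags as a whole. The rule favours this, because it leaves out dense stretches. No other set put through the same rule was set beside them here, so the evenness is not shown to be a trait of these tags. On the 15 sequences with 20 or more members the density ran from 0.350 to 0.723 members per Mb up to the last listed base, a 2.07-fold range. For all listed tags it ran from 4.59 to 20 per Mb, a 4.37-fold range. Of 145 windows of 10 Mb on these sequences, 140 held a member, and no window held more than 12, while a single window held 860 listed tags. These 2 maxima are of sets of very unlike size. The 15 sequences held 691 members, against 60.1% of the 22304 listed nuclear tags. On NW_021839130.1, which had the most listed tags per Mb, members were 2.30% of the listed tags, and on NW_021837822.1 they were 9.76%.

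With no minimum level, a female-higher majority by number was found on each of the 15 sequences with 20 or more members. Male-higher members were 31 of 97 on NW_021838153.1 (32.0%, 22.9 to 42.2), 18 of 93 on NW_021837045.1 (19.4%, 11.9 to 28.9) and 13 of 71 on NW_021838576.1 (18.3%, 10.1 to 29.3). The share ran from 16.7% on NW_021837489.1 to 42.4% (25.5 to 60.8) on NW_021838909.1. On 14 of the 15 the interval held the share of 23.9% over all members, and NW_021838909.1 was the exception. Its 33 members had 213 counts in males and 200 in females, and it was named after its values were seen. Among members of at least 3 TPM, 17 of 35 on NW_021838153.1, 10 of 21 on NW_021837045.1, 9 of 18 on NW_021838576.1 and 9 of 10 on NW_021838909.1 were higher in males. On the sequences with fewer than 20 members, 119 of 513 (23.2%, 19.6 to 27.1) were higher in males.

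**Figure D4:**
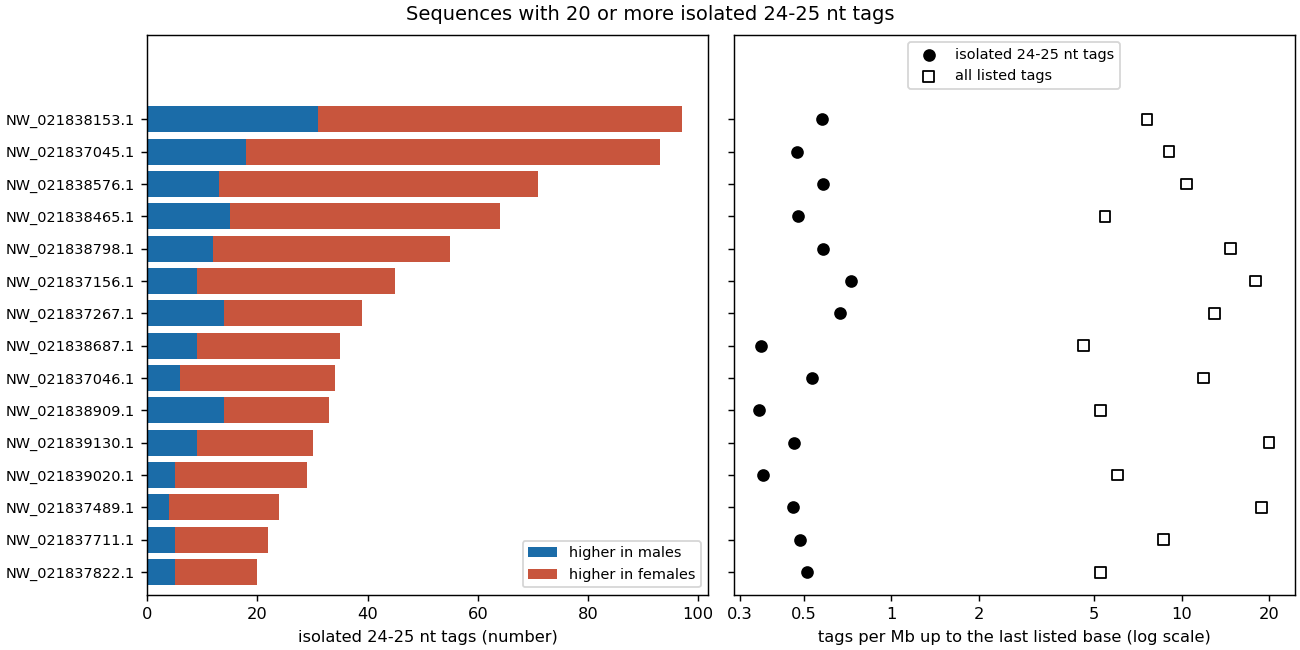
Left, number of isolated 24-25 nt tags (horizontal axis) on each of the 15 sequences that hold 20 or more, split into tags higher in males and tags higher in females; right, tags per Mb up to the last listed base on a log scale, for isolated 24-25 nt tags and for all listed tags. The tags higher in females are the majority on all 15 sequences, and the isolated tags lie between 0.350 and 0.723 per Mb while all listed tags lie between 4.59 and 20.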

How the data were processed

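Small RNAs were gel-purified from whole-body total RNA and ligated to adaptors at both ends, per the labels' protocols. Per the submitters' processing notes, reads were handled with Trimmomatic 0.30. Not given in the sources used here: aligner, counting program, build, list filter and how 3 libraries per sex became 1 column. The authors deposited whole-number counts per tag, not normalised. Per the file headers the other level is TPM, which equalled the count scaled to a total of 1000000, with 0 written as 0.01. The log2 values that the authors deposited were the log2 of male over female TPM. Each tag ID occurred at 1 position.

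Totals were recovered from the ratio of count to TPM. Edge distances were computed over all listed tags, and the distance rule and ratio intervals were tested on simulated data. Shares have exact Clopper-Pearson 95% intervals, counts exact Poisson intervals and ratios exact conditional intervals. With 1 column per sex no test across tags or replicate omission could be run. Sequence analysis was not run, as no genome of the table's build was used here. Alternatives were other distances, lengths, scalings (listed totals, TMM and RLE factors of edgeR 4.0.16 in R 4.3.3), count and TPM minimums, a listed 0 taken as 1, and omission of the 10 most counted members. TMM and RLE factors were computed from the listed tags alone. Python 3.11.15, pandas 2.3.3 and scipy 1.17.1 were used.

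Tags named were the 6 most counted per direction among those counted in both sexes, the 5 most counted per sex among those listed in one sex alone, 3 tags on each side of the distance limit, and the 3 sequences with most members. Members, lists and rules were chosen with earlier results of these data known. The minimum of 3 TPM was chosen after seeing the data.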

Additional observations from a re-analysis of the deposited data

How the results depend on the processing

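No paired analysis was possible because the table gives 1 column per sex, and no replicate could be left out. The values over isolated 24 or 25-nt tags are 1204 tags on 255 sequences, a male-higher share of 23.9%, a ratio of summed counts of 0.602 and median folds of 4.34 for male-higher and 4.23 for female-higher tags. With the totals behind the table, the male-higher share rose and the ratio of sums passed 1 when rare tags were left out. They were 70.7% and 1.42 at 10 TPM or more in either sex. At a sum of 20 or more counts they were 57.8% (46.9 to 68.1) and 1.24. At 3 TPM or more, a minimum chosen after seeing the data, they were 51.7% (46.4 to 56.9) and 1.15. Both bracketed intervals hold an even split. With TMM factors the ratio was 0.854 at 3 TPM and 1.05 at 10 TPM, and with RLE factors 0.511 and 0.627. The median folds were 3.47 for male-higher and 2.69 for female-higher tags at 10 TPM, and 3.54 and 4.01 at a sum of 20. Their order turned at that sum, at over 50000 bases (3.77 and 4.23) and without the 10 most counted members (4.42 and 4.62). It also turned for 24 nt alone (4.55 and 4.62) and on sequences with a listed tag beyond 1 Mb (4.22 and 4.23). Other scalings shifted male over female ratios by -0.10 (listed totals), -0.43 (TMM) and -1.17 (RLE) on the log2 scale. The list's 2-fold limit means that the first and second of these shifts cannot turn any tag, and RLE turned 5 members. TMM and RLE factors rested on the listed tags alone, with none alike in both sexes among them. The ratio of sums became 0.560, 0.446 and 0.267. Median folds became 3.22 for male-higher and 5.71 for female-higher tags with TMM, and 2.02 and 9.12 with RLE. With RLE factors the tags at NW_021838588.1 6285279 and NW_021838909.1 3311289 turned to 0.907 and 0.960. A listed 0 taken as 1 count gave a ratio of 0.714. The medians then cover tags listed in one sex too and are set by the list's lowest count over the assumed 1, at 7.80 for male-higher and 4.62 for female-higher tags. Without the 10 most counted members the ratio was 0.566. At over 50000 bases 777 tags remained. There were 594 tags of 24 nt, and 610 of 25 nt on 157 sequences. Sequences with a listed tag beyond 1 Mb, also chosen after seeing the data, were 124 with members, which held 1059. Distances of 1000 to 50000 bases kept the share between 23.6% and 24.7% and the ratio between 0.589 and 0.620. The planned analyses of bases, genome matches and genes were not run. The 802 members at a sum of 6 or 7 counts have too few to place their ratio closely.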
